A study of Mus musculus with 18 samples.

Results

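The genes described here start on mouse chromosome 9 between 95 and 124 Mb of the mm10 (GRCm38) assembly, the 29 Mb that surround Cish, and had a mean CPM (read counts scaled to the same library size) of 1 or more over 18 libraries. Of 810 gene IDs in this window, 177 met the rule, which leaves out 5 genes by name (Cish itself among them). The table held 53379 IDs in all, of which 11569 had enough counts to be tested, and all 177 genes were among the tested ones. Mean CPM and position chose them, so neither is a result, and the window was proposed with genotype differences of these data in view. The genes nearest the CPM limit were Gm9856 (mean 1.03), Gm18101 (1.04) and Rrp9 (1.04) inside it, and Cyb561d2 (0.954), Gm37962 (0.919) and Ccdc51 (0.908) outside it. At the window's ends, U2surp (start 95456898) was inside and Slc9a9 (94669909) outside, and Ccr1 (123962124) was inside and Ccr3 (124021972) outside. By annotation 164 of the 177 are protein-coding.

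RNA was sequenced from bone marrow neutrophils, sorted by flow cytometry, of WT (wild-type) mice and of mice labelled CIS-/-, all aged 10 weeks, with 2 genotypes, 3 conditions and 3 libraries in each of the 6 groups. Unstimulated cells were lysed straight after the sort, and the other cells were cultured with 100 ng/mL of the cytokine GM-CSF for 4 h or 24 h. The later time is that of the sample titles, while the treatment text names 42 h, so every value given here for 24 h carries that doubt. No group was cultured without GM-CSF, so time in culture and GM-CSF cannot be told apart. The labels give neither the strain of the mice, nor how the CIS-/- allele was made or which part of Cish it lacks, nor whether the libraries of a group came from separate mice, so p-values measure the spread between libraries, which may be technical.

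Cish encodes CIS, an SH2-domain protein of the suppressor of cytokine signalling family, which STAT5 induces downstream of GM-CSF and related cytokines and which limits signalling from their receptors. Neutrophils are short-lived phagocytes, and GM-CSF prolongs their survival and changes the genes that they express. The genes around Cish were not chosen for a shared function. They include chemokine receptors, ribosomal proteins, DNA repair enzymes, signalling proteins and metabolic enzymes, and what they share is their place on the chromosome. In mice with a targeted allele, DNA on both sides of the targeted gene can be inherited with it, and an effect of such linked DNA and an effect of losing CIS cannot be told apart in this design.

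The upstream sequences of 3 genes are shown because they belong to Fyco1, Dusp7 and Vill, genes that differed between genotypes in the same direction at every condition and whose 250 bases before the start overlap no annotated exon. They are from RefSeq promoters of GRCm38.p6, read 5′ to 3′ on the gene's own strand. They lie at chr9:123851900-123852149 on the minus strand for Fyco1, at chr9:106368382-106368631 on the plus strand for Dusp7, and at chr9:119052528-119052777 on the plus strand for Vill. Capitals mark a 20-base run that occurs 5 times in the Fyco1 sequence, with 30 bases from the start of a copy to the start of the next.
Fyco1: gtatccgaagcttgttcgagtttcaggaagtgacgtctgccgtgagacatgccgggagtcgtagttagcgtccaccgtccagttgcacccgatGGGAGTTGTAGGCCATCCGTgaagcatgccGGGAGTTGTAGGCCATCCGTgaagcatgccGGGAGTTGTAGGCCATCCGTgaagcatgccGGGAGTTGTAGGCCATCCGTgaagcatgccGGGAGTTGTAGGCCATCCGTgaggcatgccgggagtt
Dusp7: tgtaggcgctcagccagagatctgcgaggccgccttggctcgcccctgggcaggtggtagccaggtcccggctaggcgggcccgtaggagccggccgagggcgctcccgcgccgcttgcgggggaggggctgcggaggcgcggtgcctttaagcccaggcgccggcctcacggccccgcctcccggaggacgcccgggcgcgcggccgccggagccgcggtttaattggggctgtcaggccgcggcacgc
Vill: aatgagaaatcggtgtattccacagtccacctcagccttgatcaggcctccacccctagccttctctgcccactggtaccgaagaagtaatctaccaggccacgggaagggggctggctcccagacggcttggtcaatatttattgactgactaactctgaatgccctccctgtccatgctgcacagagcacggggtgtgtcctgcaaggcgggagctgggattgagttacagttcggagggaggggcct

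The RefSeq table held 32851 promoter windows of 300 bases. Copies of 20-base runs were counted in the 250 bases before the start, and only for runs that hold all 4 bases, so simpler repeats were left out. Such a run occurred at least 4 times in 30 windows (0.0913%). The Fyco1 window was the only one of 199 windows of the genes around Cish among them. GC content was 58.8% for Fyco1, 77.2% for Dusp7 and 56.4% for Vill, with 19, 34 and 7 CpG pairs. The table held windows for 155 of the 177 genes. The windows were searched for 4 motifs on both strands: TTCNNNGAA (the STAT core), TATAAA (the TATA box), TGACGTCA (the cyclic AMP response element) and GGGCGG (the GC box). A stretch may match more than 1 motif. None of the 4 was in the 3 printed sequences. TTCNNNGAA was in 7.54% of the windows of the genes around Cish and in 8.3% of all windows, and GGGCGG was in 65.3% and 35.7%. TATAAA was in 5.53% against 13.6%, and TGACGTCA in 4.02% against 1.79%. All windows cover 27025 genes, more than the 11569 tested, while the genes around Cish passed a CPM limit. No share over expressed genes alone was made, so these gaps are not a feature of the window. Genes that differed in the same direction at every condition had 33 windows, which came from only 22 genes. GGGCGG was in 12 of these windows (36.4%), TTCNNNGAA and TGACGTCA each in 3.03%, and TATAAA in 0%. Windows of the same gene are not independent, so these shares are not read as a trait of such genes. A match is a description of letters, not of a bound site.

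Libraries held 12170524 to 22539858 counts. Cish checked the genotype labels. In unstimulated cells it was at 6.48, 6.52 and 6.5 CPM in WT and at 18.3, 20 and 17.9 CPM in the libraries labelled CIS-/- and so was higher there, which goes against the label. After 4 h it was at 1155, 1138 and 1153 CPM in WT and 243, 240 and 237 CPM in the libraries labelled CIS-/-, and after 24 h at 1069, 1056 and 1056 CPM against 238, 243 and 233 CPM. Directions below are those of libraries labelled CIS-/- against WT. Summed CPM of 10 neutrophil markers was 97516 to 100502 over the unstimulated libraries of both genotypes, 59543 to 63567 at 4 h and 34001 to 39377 at 24 h. The sum hides single markers that went both ways at 24 h. Csf3r, Cxcr2, Mmp8, Mmp9 and Retnlg (521, 531 and 496 CPM in WT against 95.5, 86.6 and 78.1 CPM) were lower in libraries labelled CIS-/-. S100a8, S100a9, Itgam and Fpr1 (186, 189 and 172 CPM against 485, 453 and 428 CPM) were higher there, and Ly6g overlapped. Markers of some other cells moved with the label, and others did not. Summed CPM of 7 erythroid markers was 43.8 to 45.8 in WT and 119 to 123 in libraries labelled CIS-/- when unstimulated, 30.1 to 35.6 and 78.5 to 113 at 4 h, and 7.73 to 9.35 and 30.1 to 41.8 at 24 h. At 24 h, 8 monocyte and macrophage markers summed to 540 to 561 CPM in WT and 1011 to 1050 CPM in libraries labelled CIS-/-, and 7 B cell markers to 80.4 to 84 and 14.2 to 16.7 CPM. Their part in the results below was not tested.

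Many genes around Cish differed between the genotypes already in unstimulated cells, and most did at 24 h, when most genes of the whole table did too. In unstimulated cells 68 of the 177 differed (36 higher and 32 lower in libraries labelled CIS-/-), at an adjusted p under 0.05 by edgeR's quasi-likelihood test with Benjamini-Hochberg adjustment over all 11569 genes. That is 38.4% of them, against 22.3% of all genes tested (12.9% higher, 9.41% lower). After 4 h, 67 differed (28 higher, 39 lower), 37.9% against 17.3% of all genes (8% higher, 9.3% lower). After 24 h, 141 differed (61 higher, 80 lower), 79.7% against 76.3% (38.2% higher, 38.1% lower), a share near that of all genes. All genes tested, here and below, include genes under the limit of 1 CPM that the 177 had to meet. Of the 9672 genes outside the window that met it, 2422 differed in unstimulated cells, 1877 at 4 h and 7835 at 24 h. With library sizes alone in place of trimmed-mean (TMM) scaling, the 177 genes split into 29 higher and 49 lower unstimulated, and 36 higher and 118 lower at 24 h. That scaling moved the median log2 difference of all genes from -0.02 to -0.55 at 24 h. As the samples are bulk RNA, fewer cells of a type and less RNA per cell cannot be told apart for any of these values.

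A larger share of the genes around Cish than of all genes kept the direction of its difference. The 3 genotype comparisons share no library, and 27 of the 177 genes (15.3%) passed the test in the same direction at all 3, against 2.71% of all genes tested. Of these, 12 were higher at each condition (all genes: 1.65%) and 15 were lower (1.06%), or 7 and 22 with library sizes alone. Of the 27 genes, 11 (6.21% of the 177, against 0.389% of all genes) also differed at least 1.5-fold at each condition, 5 higher (0.285%) and 6 lower (0.104%), or 4 and 10 with library sizes alone. In all 3 conditions of 31 genes (17.5%, against 5.17%) the libraries of the 2 genotypes did not overlap, in 1 direction. These 31 held 25 of the 27 genes that kept their direction, all but Gmppb and Ccr1, and all 11 with at least 1.5-fold.

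**Figure D1:**
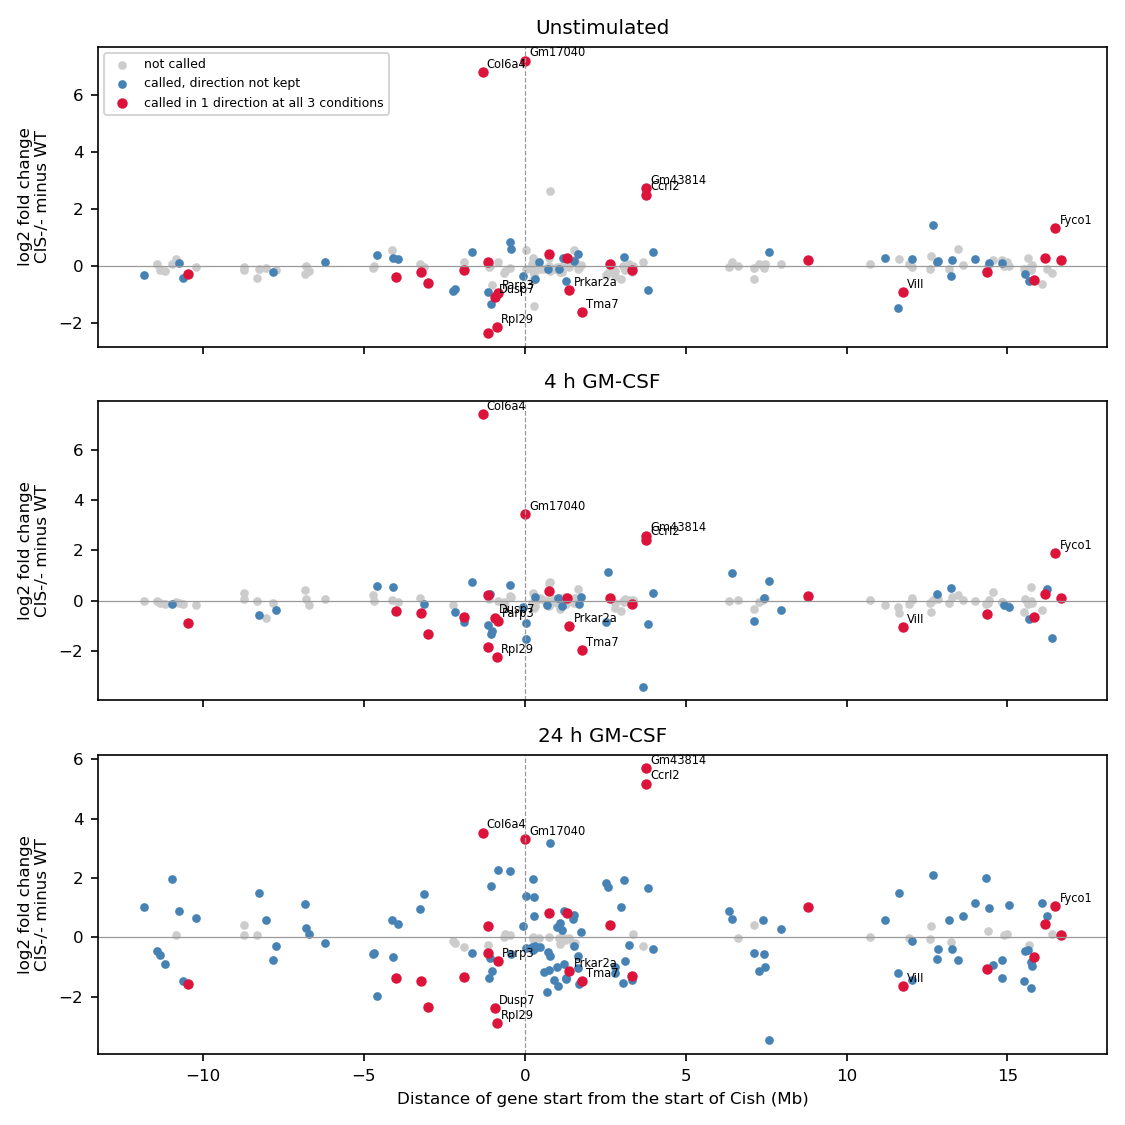
Log2 genotype difference (libraries labelled CIS-/- minus WT) of each of the 177 genes against the distance of its start from the start of Cish in Mb, in unstimulated cells and after 4 h and 24 h of GM-CSF. Red points passed the test in the same direction at all 3 conditions, blue points passed at that condition but not in the same direction at all 3, and grey points did not pass; the 11 named genes differed at least 1.5-fold at each condition, 9 of them within 5 Mb of Cish.

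Genes with a kept direction lay on both sides of Cish (chr9:107296026-107302784), not evenly. Of 101 genes within 5 Mb of its start, 19 (18.8%) kept their direction, 9 of them at 1.5-fold or more. Between 5 and 10 Mb it was 1 of 23 (4.35%), between 10 and 13 Mb 2 of 23 (8.7%), and between 13 and 20 Mb 5 of 30 (16.7%). Along the chromosome, with boundaries set after seeing the values, 1 of 24 genes between 95 and 103 Mb kept its direction, 19 of 98 (19.4%) between 103 and 112 Mb, 1 of 16 between 112 and 119 Mb and 6 of 39 (15.4%) between 119 and 124 Mb. The far group between 119 and 124 Mb held Vill, Fyco1, Exosc7, Limd1, Sec22c and Ccr1. Within 10 Mb of Cish 20 of 124 genes (16.1%) kept their direction and beyond it 7 of 53 (13.2%). By level, 12 of the 89 genes at or above the median CPM and 15 of the 88 below it kept their direction.

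Other parts of the genome held a smaller share of such genes. On the rest of chromosome 9, 9 of 365 tested genes with a mean of 1 CPM or more (2.47%) kept their direction, and over all genes outside the window it was 285 of 9672 (2.95%). The 19 other chromosomes compared ranged from 1.43% on chromosome 2 to 4.97% on chromosome 12. At 1.5-fold or more it was 1 of 365 genes on the rest of chromosome 9 and 32 of 9672 (0.331%) outside the window, with at most 0.866% on a chromosome (chromosome 3) against 6.21% of the genes around Cish. No test was made of these shares, since the window was chosen with them in view.

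**Figure D2:**
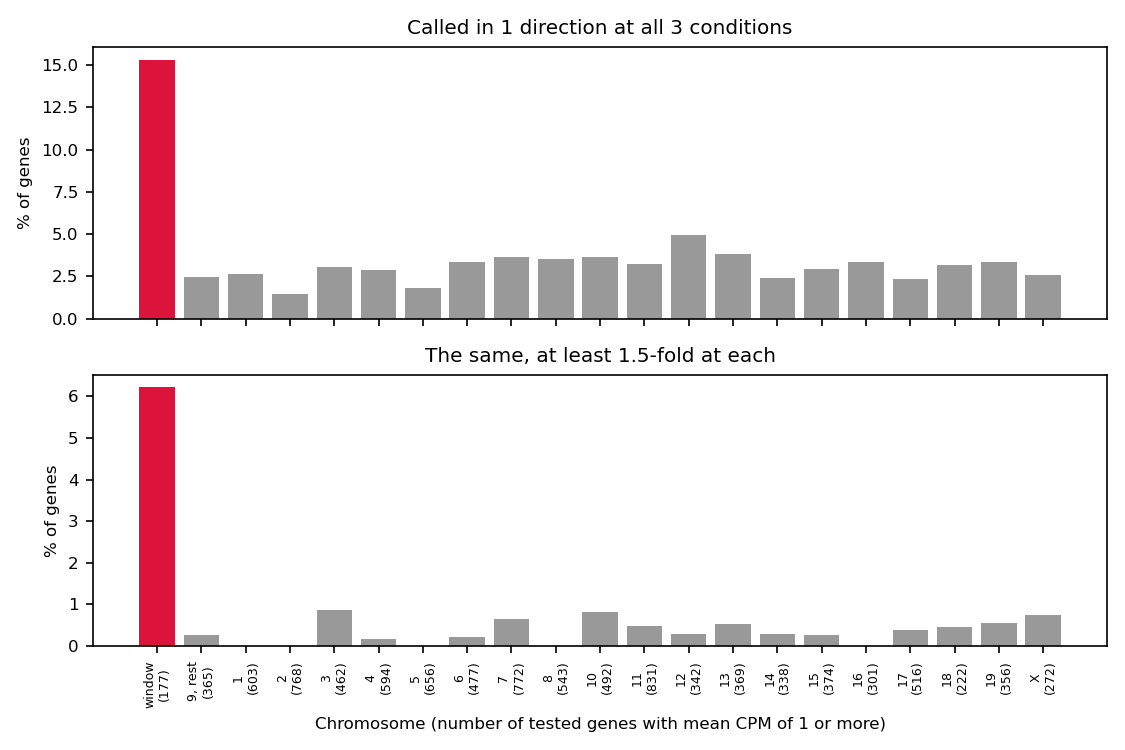
Percent of tested genes with a mean of 1 CPM or more (their number in brackets) that passed the test in the same direction at all 3 conditions (upper bars), and that did so at 1.5-fold or more at each (lower bars), for the window around Cish, the rest of chromosome 9 and each other chromosome. The window stands at 15.3% and 6.21%, and the highest other bars are 4.97% and 0.866%.

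Col6a4, which encodes a chain of the extracellular matrix collagen VI and lies 1.31 Mb before Cish, had the largest genotype difference of the 177 genes at 4 h. Its 3 unstimulated WT libraries had 0.183, 0.403 and 0.269 CPM and the libraries labelled CIS-/- 31.3, 33.5 and 33.3 CPM (log2 difference 6.82 ± 0.17 SE, adjusted p = 5.07e-40). After 4 h it was at 0, 0.136 and 0.0804 CPM against 13.5, 14.2 and 14.6 CPM, and after 24 h at 0, 0.0348 and 0.0981 CPM against 0.62, 0.736 and 0.45 CPM. The groups were apart at each condition, and the libraries labelled CIS-/- were lower at each later time while WT was near 0 throughout. The WT libraries held only 3 counts in all at 4 h and 3 at 24 h, where the ratios with their 95% exact counting intervals were 190 (64.6 to 923) and 13.5 (4.1 to 69.6). These intervals cover counting error only.

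Gm17040 is annotated as a transcribed processed pseudogene on the minus strand and overlaps Cish on the opposite strand (chr9:107292435-107297192). Reads that match its parent gene or another copy may be counted to it or lost, which was not tested. WT had 0, 0.0672 and 0 CPM and the libraries labelled CIS-/- 3.59, 4.31 and 4.51 CPM when unstimulated, 197 counts against 1 and a ratio of 206 (36.5 to 8170). After 4 h it was at 3.58, 2.58 and 3.05 CPM in WT and 33.6, 33.4 and 33.6 CPM in libraries labelled CIS-/- (log2 difference 3.45 ± 0.11 SE, adjusted p = 1.56e-33). After 24 h the values were 2.7, 2.26 and 2.26 CPM against 25.3, 23.6 and 22.4 CPM (3.30 ± 0.11, adjusted p = 6.93e-36). It was thus higher in libraries labelled CIS-/- where Cish was lower, after GM-CSF, and also where Cish was higher, without it. The library kit keeps strand, but the sources used here do not say whether the counting used it, so reads of the 2 overlapping genes may not be told apart.

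The list of chemokine receptors holds 2 of the 177 genes, and both were higher in libraries labelled CIS-/- at all 3 conditions, by very unequal amounts. Ccrl2, an atypical receptor that binds the attractant chemerin without signalling and starts 3.76 Mb after Cish, was at 18, 15.1 and 16.7 CPM in unstimulated WT and 96.9, 91.2 and 96.7 CPM in libraries labelled CIS-/-. After 4 h it was at 21, 19.6 and 20 CPM against 109, 111 and 105 CPM, and after 24 h at 44.1, 45 and 46.2 CPM against 1678, 1641 and 1589 CPM. The log2 differences were 2.52 ± 0.05 SE (adjusted p = 5.62e-44), 2.43 ± 0.05 (adjusted p = 6.34e-43) and 5.18 ± 0.04 (adjusted p = 9.84e-68). The libraries of the 2 genotypes were far apart at each condition, and the difference at 24 h exceeded that in unstimulated cells by 2.67 ± 0.07 (adjusted p = 1.88e-39). Gm43814, an unnamed transcript on the same strand just downstream of Ccrl2, went the same way, from 0.372, 0.73 and 0.441 CPM in WT to 31, 25 and 28.5 CPM at 24 h (5.70 ± 0.16, adjusted p = 4.90e-39). In unstimulated cells it had 15 counts against 2, a ratio of 7.84 (1.82 to 70.6), and that call was lost without replicate 3 of the libraries labelled CIS-/- (adjusted p = 0.254) or replicate 1 of WT (adjusted p = 0.0623). Ccr1, the receptor for CCL3 and CCL5 at the far end of the window, was at 630, 594 and 613 CPM in unstimulated WT and 719, 714 and 713 CPM in libraries labelled CIS-/-, a log2 difference of 0.22 ± 0.03 (adjusted p = 4.29e-07). The difference was 0.11 ± 0.03 at 4 h and 0.08 ± 0.03 at 24 h, where the libraries of the genotypes overlapped and the sign turned with library sizes alone (-0.45), and these calls were lost at 4 h without WT replicate 1 or 3 or replicate 2 labelled CIS-/- (adjusted p = 0.0515 to 0.199) and at 24 h without WT replicate 1 or 3, replicate 3 labelled CIS-/- or the unstimulated replicate 1 labelled CIS-/- (0.0503 to 0.14). The 24 h call was also lost with only the 2 groups compared (adjusted p = 0.264) and with no low-count filter (0.367).

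Rpl29 and Tma7, genes of the protein synthesis machinery, were lower at each condition. Rpl29, which encodes a protein of the large ribosomal subunit and lies 0.87 Mb before Cish, was at 22.4, 22.9 and 21.5 CPM in unstimulated WT and 4.75, 5.52 and 4.96 CPM in libraries labelled CIS-/-. It was at 20.2, 15.6 and 18.5 CPM against 4.17, 3.63 and 3.57 CPM after 4 h, and at 28.3, 25.2 and 26.2 CPM against 3.02, 3.49 and 4 CPM after 24 h. No library of 1 genotype reached the range of the other, and the log2 differences were -2.13 ± 0.10, -2.26 ± 0.12 and -2.89 ± 0.11 SE (adjusted p = 2.33e-33 at 24 h). Tma7, a small protein linked to translation that lies 1.78 Mb after Cish, was at 16.3, 17.1 and 18.3 CPM in unstimulated WT and 5.84, 5.9 and 5.41 CPM in libraries labelled CIS-/- (-1.59 ± 0.10, adjusted p = 1.22e-19). Its log2 differences were -1.98 ± 0.13 at 4 h and -1.48 ± 0.10 at 24 h. Both genes have pseudogene copies elsewhere. Copies that carry the gene's own name with the ending -ps held 0 to 2 counts for Rpl29 and 33 counts for Tma7 over 18 libraries. Copies under other names were not looked for. The sources used here do not say how reads that match several places were counted. Rpl29 is 1 of 8 genes in the list of ribosomal proteins, tRNA synthetases and translation factors, which does not hold Tma7. The others on it did not keep a direction, with Rpl14 at 0.23, 0.16 and -0.39 and Rpsa at 0.19, 0.07 and -0.39.

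Fyco1 and Vill lay farthest from Cish among the 11. Fyco1, an adaptor that links autophagosomes to microtubule transport, starts 16.49 Mb after Cish. It was at 16.9, 18.6 and 19.8 CPM in unstimulated WT against 44.1, 48.7 and 49.8 CPM, at 16, 12.2 and 13.6 CPM against 48.4, 47.5 and 58.4 CPM after 4 h, and at 16.3, 15.9 and 17.3 CPM against 31.6, 33.6 and 36.6 CPM after 24 h. Its log2 differences of 1.36 ± 0.08, 1.88 ± 0.09 and 1.06 ± 0.08 SE all passed the test (adjusted p = 2.39e-16 at 24 h), and the libraries of the genotypes did not overlap. Vill, a villin-like actin-binding protein 11.76 Mb after Cish, was lower after GM-CSF than without it in every library, and lower in libraries labelled CIS-/- than in WT throughout. Unstimulated WT had a mean of 104 ± 2.21 CPM (SD, n = 3) and the libraries labelled CIS-/- had 55.9, 57.6 and 54.1 CPM. The values were 19, 20.7 and 18.7 CPM against 7.91, 11.1 and 8.59 CPM after 4 h, and 21, 19.9 and 19.5 CPM against 6.98, 6.9 and 5.75 CPM after 24 h. The log2 differences were -0.90 ± 0.05, -1.05 ± 0.09 and -1.65 ± 0.09 (adjusted p = 4.25e-24 at 24 h). Fyco1 overlaps Cxcr6 and another annotated gene, so reads of the shared stretches are uncertain.

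Parp3, Prkar2a and Dusp7 were lower at each condition. Parp3, a poly(ADP-ribose) polymerase of double-strand break repair 0.83 Mb before Cish, was at 26.8, 28.8 and 25 CPM against 13.3, 14.8 and 14.2 CPM unstimulated, 31.1, 32 and 30.2 CPM against 17.7, 17.2 and 18.5 CPM after 4 h, and 14.1, 14.6 and 14.4 CPM against 7.91, 8.37 and 8.36 CPM after 24 h. Its level was highest at 4 h and lowest at 24 h in both genotypes, and its genotype differences were -0.93 ± 0.07, -0.81 ± 0.07 and -0.80 ± 0.09 SE. The joint test of whether the difference changed between conditions gave an adjusted p of 0.521. Prkar2a, a regulatory subunit of the cyclic AMP-dependent protein kinase 1.39 Mb after Cish, was at 7.89, 9.81 and 8.27 CPM against 4.69, 5.33 and 4.58 CPM unstimulated, and its log2 differences were -0.83 ± 0.14, -1.01 ± 0.18 and -1.14 ± 0.17 (adjusted p of the joint test = 0.432). Dusp7, a phosphatase that inactivates ERK kinases, lies 0.93 Mb before Cish and was at 21.3, 20.4 and 19.3 CPM against 10.2, 8.62 and 10.2 CPM unstimulated. At 24 h its gap was wider, 22.9, 24.3 and 23.2 CPM against 5.12, 3.95 and 4.35 CPM (-2.39 ± 0.10, adjusted p = 4.84e-31). The 4 h difference of Dusp7 was the smallest of its 3, -0.68 ± 0.10. Parp3 overlaps Rrp9, a gene of ribosomal RNA processing, on the opposite strand, and Rrp9 did not follow it, with log2 differences of 0.17, -0.01 and 2.28.

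The other 16 genes with a kept direction differed less than 1.5-fold at 1 condition or more. D030055H07Rik, a noncoding RNA that overlaps Glyctk and a microRNA gene, was at 6.42, 7.73 and 7.2 CPM against 1.76, 1.08 and 1.35 CPM unstimulated (log2 difference -2.33 ± 0.17 SE) and closer at 24 h (-0.53 ± 0.12, adjusted p = 7.02e-05). Acpp, an acid phosphatase, had a gap that widened, from -0.58 ± 0.04 unstimulated to -1.35 ± 0.07 at 4 h and -2.36 ± 0.07 at 24 h. At 24 h its WT libraries had 38, 38.5 and 37 CPM and the libraries labelled CIS-/- 6.98, 8.09 and 7.21 CPM. Tgfbr2, the type II receptor for TGF-beta, was higher by 0.21 ± 0.04 and 0.17 ± 0.03 in the earlier conditions and by 1.02 ± 0.03 at 24 h (adjusted p = 4.57e-35), with 226, 218 and 221 CPM against 428, 460 and 457 CPM. Topbp1, a checkpoint protein of DNA replication, was lower by 0.37, 0.40 and 1.37 on the log2 scale, and its 4 h call was lost without WT replicate 2, WT replicate 3 or replicate 2 labelled CIS-/- (adjusted p = 0.0596 to 0.106). Exosc7, a subunit of the RNA exosome, Gmppb, an enzyme of GDP-mannose synthesis, and Limd1, a LIM-domain scaffold, kept log2 differences of -0.48, -0.65 and -0.67, of 0.42, 0.39 and 0.83, and of 0.31, 0.27 and 0.44. The call of Gmppb was lost in unstimulated cells without replicate 1 of either genotype (adjusted p = 0.121 and 0.216) and at 4 h without any of the 3 WT libraries or replicate 1 or 2 labelled CIS-/- (0.0581 to 0.361) or with limma-voom (0.0703). That of Limd1 was lost in unstimulated cells without WT replicate 1 (adjusted p = 0.0715) and at 4 h without WT replicate 2 or 3 or any of the 3 libraries labelled CIS-/- (0.0593 to 0.183) or with no low-count filter (0.0555), and its sign turned at 24 h with library sizes alone (-0.10).

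**Figure D3:**
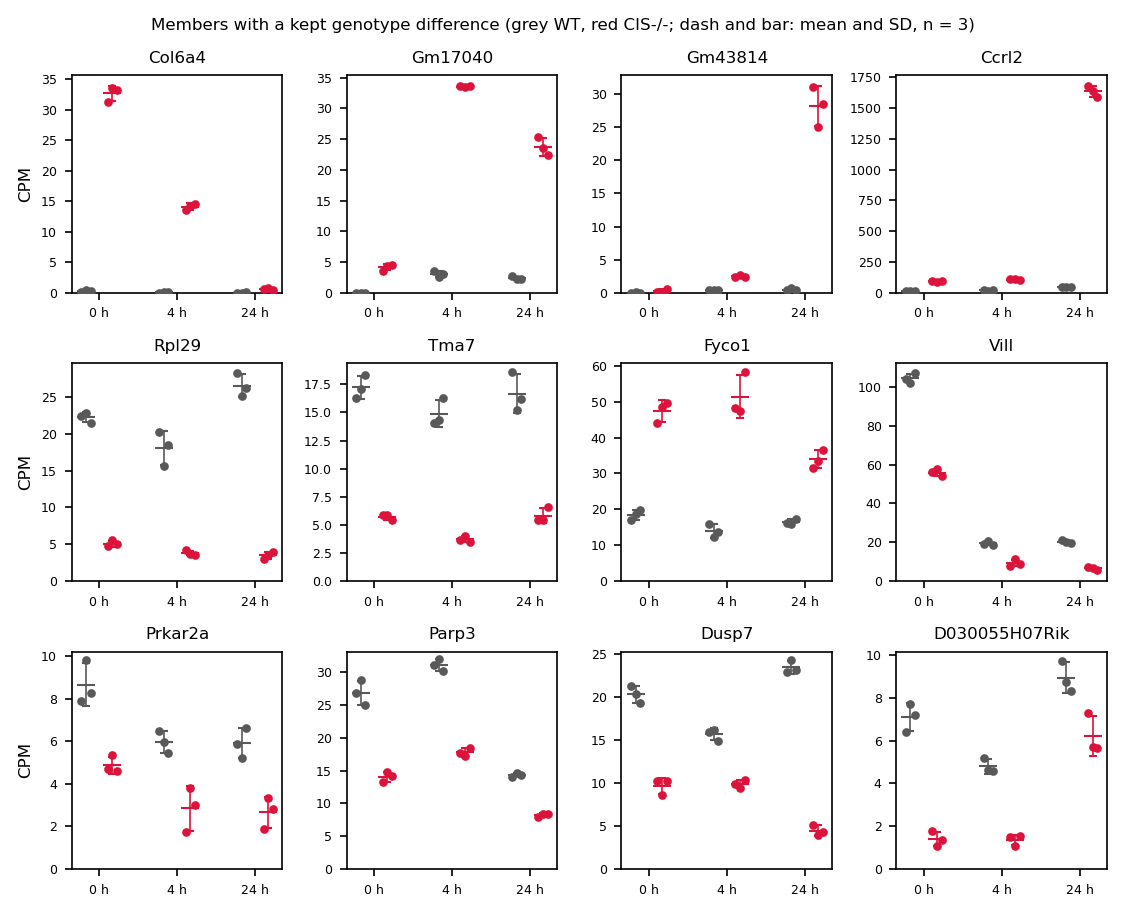
CPM of each library (points), with mean and SD (dash and bar, n = 3), in WT (grey) and libraries labelled CIS-/- (red), when unstimulated (0 h) and after 4 h and 24 h of GM-CSF, for the 11 genes with a kept difference of at least 1.5-fold and for D030055H07Rik. Each panel has its own linear axis from 0; the colours do not overlap at any time in any panel, though for Gm43814 at 0 h both lie near 0 (highest grey 0.0672 CPM, lowest red 0.127 CPM).

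A kept direction did not mean a constant size. Of the 27 genes, 5 (2.82% of the 177, against 0.441% of all genes) did not pass the joint test of a change in genotype difference between conditions, namely Prkar2a, Parp3, Exosc7, Gmppb and Limd1. The other 22 (12.4%, against 2.27%) did. A missed test does not show a constant difference, and the spread between the 3 log2 differences was 0.12 for Parp3, 0.17 for Limd1, 0.19 for Exosc7, 0.31 for Prkar2a and 0.44 for Gmppb. Over all 177 genes, 137 (77.4%) passed the joint test, near the 70.8% of all genes tested. For 35 genes (19.8%, against 15.7%) the difference changed between unstimulated cells and 4 h, upward in 12 (all genes: 5.32%) and downward in 23 (10.4%), or 16 and 20 with library sizes alone, for 128 (72.3%, against 64.7%) between unstimulated cells and 24 h, and for 127 (71.8%, against 66%) between 4 h and 24 h. These interaction tests share libraries with each other. For them, shares over only those genes elsewhere that met the CPM limit were not made.

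The differences of unstimulated cells and of cells after 4 h had a higher correlation over the genes around Cish than over all genes elsewhere, as a description. Of the 177, 40 (22.6%) passed the test in the same direction in both, against 4.68% of all genes, and 1 (Entpd3; 0.565%, against 2.07%) in opposite directions. In 32 of the 40 (18.1% of the 177, against 3.45%) the change between both conditions was not called. Of 21 genes that differed at least 1.5-fold in unstimulated cells, 21 had the same sign at 4 h and 17 (81%) were called in that direction, while of 391 such genes outside the window 233 (59.6%) had the same sign and 93 (23.8%) were called. Read at 24 h, 14 of the 21 (66.7%) were called in the same direction and 3 (14.3%) in the opposite one. Outside the window it was 62.7% and 17.1% of the 391, so the 24 h shares were near each other. Pearson's r of the log2 differences between unstimulated cells and 4 h was 0.81 over the 177 genes (Spearman's rho 0.57) and 0.20 over 9672 genes outside the window (0.17). Without the 5 genes with the largest kept difference it was 0.53 (rho 0.54). For 24 h the r was 0.50 with unstimulated cells and 0.43 with 4 h, against 0.18 and 0.13 outside. Without the 5 genes these were 0.24 and 0.12, close to the values outside, and Spearman's rho over all 177 was 0.26 and 0.18. Single chromosomes also differed, and chromosome 7 had an r of 0.53 between unstimulated cells and 4 h. These points are genes of the same libraries and no independent replicates. At 24 h, 41 genes (23.2%, against 11.4%) went the same way as in unstimulated cells and 37 (20.9%, against 8.93%) the same way as at 4 h.

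**Figure D4:**
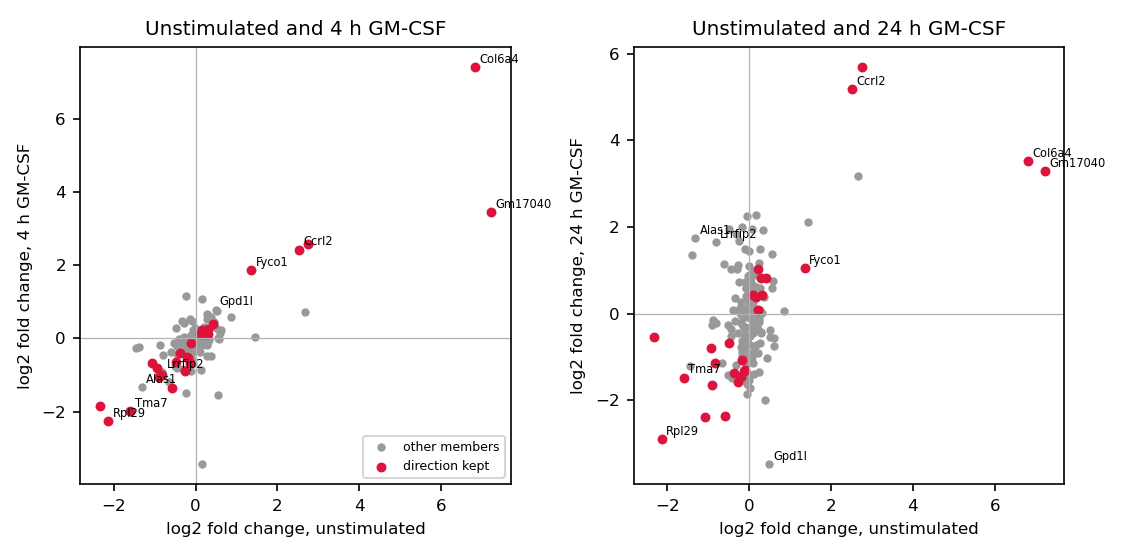
Log2 genotype difference of each of the 177 genes in unstimulated cells (x axis) against that after 4 h (left) and 24 h (right) of GM-CSF; red genes passed the test in the same direction at all 3 conditions and selected genes are named. At 4 h the r was 0.81, and Gm17040 lies far from the diagonal (7.22 unstimulated, 3.45 at 4 h). At 24 h many genes near 0 in unstimulated cells are spread up and down (r = 0.50), and Alas1 and Lrrfip2 change sign.

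Some genes reversed between 4 h and 24 h. Opposite calls at 2 conditions were found for 31 of the 177 genes (17.5%, against 12.3%), and in 9 (5.08%, against 1.31%) unstimulated cells and cells after 4 h went the same way and cells after 24 h the opposite way. These 9 were Alas1, Lrrfip2, Gpd1l, Amotl2, Trf, Pik3r4, Mapkapk3, Epm2aip1 and Slc25a38. Alas1, the first enzyme of heme synthesis, lies 1.06 Mb before Cish. It was at 138, 147 and 135 CPM in unstimulated WT and 59, 56.1 and 54.5 CPM in libraries labelled CIS-/-, and after 4 h at 201, 200 and 207 CPM against 87.4, 78.2 and 77.2 CPM. After 24 h the order was turned, with a mean of 106 ± 4.63 CPM (SD, n = 3) in WT and 360, 358 and 346 CPM in libraries labelled CIS-/-. Its log2 differences were -1.31 ± 0.05, -1.33 ± 0.04 and 1.74 ± 0.04 SE, and the change from unstimulated cells to 24 h was 3.05 ± 0.06 (adjusted p = 9.32e-47). Alas1 is the form of this enzyme found in most tissues. The erythroid markers given above were higher in libraries labelled CIS-/- at every condition, and any link between them and Alas1 was not tested.

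Lrrfip2, which starts 3.82 Mb after Cish, followed the same course. Its WT libraries had 134, 131 and 133 CPM, then 146, 140 and 149 CPM, then 79.5, 74.6 and 78.5 CPM, and the libraries labelled CIS-/- 75.3, 78.4 and 72.9, then 76.5, 75.7 and 77.3, then 249, 238 and 246 CPM. The differences were -0.81 ± 0.04, -0.92 ± 0.04 and 1.66 ± 0.04 SE (adjusted p = 7.86e-44 at 24 h). Gpd1l, an enzyme related to glycerol-3-phosphate dehydrogenase, went in the opposite direction, with 68, 70.6 and 69 CPM against 98.6, 97.7 and 95.9 CPM unstimulated and 49.7, 50.8 and 47.7 CPM against 4.11, 4.69 and 4.45 CPM at 24 h. Its differences were 0.49 ± 0.04, 0.79 ± 0.06 and -3.48 ± 0.08 (adjusted p = 1.12e-44 at 24 h), the lowest of the 177 at 24 h. Amotl2, a cell-junction scaffold of the motin family, was at 0.39 ± 0.11, 0.58 ± 0.20 and -1.99 ± 0.19. Its unstimulated call was lost without WT replicate 1 (adjusted p = 0.0529) or replicate 3 labelled CIS-/- (0.0549), and its 4 h call without replicate 1 or 2 of either genotype (0.055 to 0.302) or with limma-voom (0.109).

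Other genes differed at 1 time and not at another. Csrnp1, a nuclear protein induced by cytokines, was at 84, 86.2 and 89.9 CPM against 236, 236 and 239 CPM unstimulated. At 4 h the genotypes overlapped, with 320, 317 and 329 CPM against 333, 333 and 327 CPM, and at 24 h WT had a mean of 102 ± 5 CPM (SD, n = 3) and the libraries labelled CIS-/- at 430, 451 and 435 CPM. The change of its difference from unstimulated cells to 4 h was -1.41 ± 0.05 SE (adjusted p = 8.82e-31). Cdc25a, a phosphatase that activates cyclin-dependent kinases, was at 13.9, 14.5 and 14 CPM against 11.6, 11.9 and 12.3 CPM unstimulated, a difference that missed the threshold (adjusted p = 0.0673). At 4 h it was at 3.66, 3.67 and 4.34 CPM against 8.17, 9.27 and 8.08 CPM (1.15 ± 0.14, adjusted p = 4.28e-09) and at 24 h at 1.82, 1.91 and 2.89 CPM against 5.66, 7.45 and 7.66 CPM (1.68 ± 0.15, adjusted p = 9.38e-16). Pik3cb, a catalytic subunit of phosphoinositide 3-kinase 8.26 Mb before Cish, was near even at first (-0.09 ± 0.04, adjusted p = 0.155), lower at 4 h (-0.58 ± 0.05) and higher at 24 h (1.5 ± 0.05, adjusted p = 5.08e-37). Clasp2, a protein that stabilises microtubule ends, was at 6.78, 7.82 and 7.55 CPM against 14.2, 16.9 and 15.9 CPM at 4 h (1.09 ± 0.11, adjusted p = 8.68e-12) and differed by 0.17 ± 0.12 unstimulated (adjusted p = 0.334). Entpd3, a cell-surface enzyme that cleaves nucleotides, was lower unstimulated, at 8.25, 9.54 and 8.86 CPM against 6.57, 6.91 and 7.74 CPM (-0.33 ± 0.11, adjusted p = 0.0174). It was higher at 4 h, at 18.7, 17.6 and 18.2 CPM against 25.2, 24.4 and 26.3 CPM (0.48 ± 0.08, adjusted p = 2.64e-06), and the genotypes did not overlap at either condition. The unstimulated call of Entpd3 was lost without WT replicate 2 or replicate 1 or 2 labelled CIS-/- (adjusted p = 0.0603 to 0.101).

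At 24 h single genes moved strongly in both directions. Gpx1, the glutathione peroxidase that removes hydrogen peroxide, was at 625, 601 and 597 CPM in WT and 213, 197 and 182 CPM in libraries labelled CIS-/- (-1.63 ± 0.04 SE, adjusted p = 6.72e-43), while its unstimulated difference was -0.06 ± 0.04. Pfkfb4, an enzyme that sets the glycolysis regulator fructose-2,6-bisphosphate, was at 345, 337 and 336 CPM against 116, 117 and 111 CPM (-1.57 ± 0.04, adjusted p = 6.77e-44). Uba7, the activating enzyme for the ubiquitin-like protein ISG15, was at 68.2, 63 and 63.9 CPM against 17.1, 20.6 and 17.2 CPM (-1.85 ± 0.06, adjusted p = 1.16e-37). Each of these 3 had unstimulated differences that missed the threshold. Higher at 24 h were Manf, an endoplasmic reticulum stress protein (2.25 ± 0.06, adjusted p = 1.23e-39), Atp1b3, a subunit of the sodium pump (1.96 ± 0.04, adjusted p = 1.21e-45), and Ptpn23, an endosomal phosphatase-like protein (1.93 ± 0.04, adjusted p = 1.47e-48). Calls at 24 h were common in the whole table, so no count of them is a feature of these genes.

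**Figure D5:**
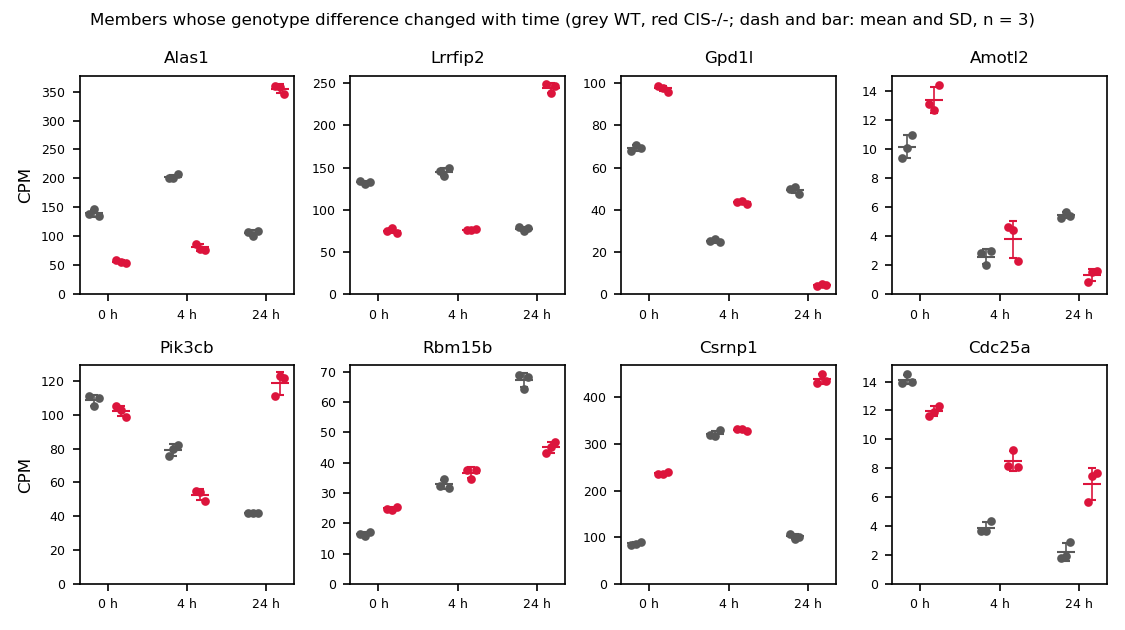
CPM of each library (points), with mean and SD (dash and bar, n = 3), in WT (grey) and libraries labelled CIS-/- (red), when unstimulated (0 h) and after 4 h and 24 h of GM-CSF, for 8 genes whose genotype difference changed with time. Each panel has its own linear axis from 0. Alas1 and Lrrfip2 are below WT at 0 h and 4 h and above it at 24 h, and Gpd1l and Amotl2 the reverse.

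The genes nearest to Cish moved in both directions. Of 19 genes in the list of neighbours, 4 rose and 1 fell in unstimulated cells, 3 rose and 3 fell at 4 h, 7 rose and 6 fell at 24 h, and only Gm17040 of this list kept its direction. Of all genes tested, 12.9% rose and 9.41% fell in unstimulated cells, 8% and 9.3% at 4 h, and 38.2% and 38.1% at 24 h, so the 24 h counts are near the share of all genes. The median log2 difference of the list was -0.04, -0.11 and 0.02. Mapkapk3, a kinase downstream of p38 that lies just before Cish, was at 152, 144 and 152 CPM against 117, 119 and 118 CPM unstimulated (-0.34 ± 0.04 SE) and at 282, 268 and 264 CPM against 357, 358 and 339 CPM at 24 h (0.37 ± 0.03, adjusted p = 4.99e-15, and -0.16 with library sizes alone). Hemk1, a methyltransferase that modifies translation release factors and is the next of the 177 genes after Cish, was at 15.5, 16 and 13.7 CPM against 7.74, 8.53 and 8.25 CPM at 4 h (-0.88 ± 0.12, adjusted p = 1.91e-07). Its differences were -0.10 ± 0.18 unstimulated and -0.35 ± 0.07 at 24 h. Rbm15b, an RNA-binding protein, went from 0.60 ± 0.07 unstimulated to -0.57 ± 0.05 at 24 h (adjusted p = 1.87e-15). Dcaf1, a substrate receptor of ubiquitin ligases, was higher unstimulated (0.86 ± 0.20) and at 4 h (0.60 ± 0.08) and missed the threshold at 24 h (0.07 ± 0.06, adjusted p = 0.277). Rad54l2, Rassf1 and Tusc2 passed at no condition.

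Grouped by role, most lists held genes that rose beside genes that fell; the 2 chemokine receptors were both higher. The lists were drawn up with earlier results known, so their counts support nothing on their own. They are to be read against all genes tested, of which 12.9% rose and 9.41% fell in unstimulated cells, 8% and 9.3% at 4 h, and 38.2% and 38.1% at 24 h. Of 21 signalling proteins and GTPases, 6 rose and 4 fell in unstimulated cells, 4 rose and 4 fell at 4 h, and 10 rose and 8 fell at 24 h. Their median log2 difference was 0.08, 0.02 and 0.01, against -0.01, -0.02 and -0.02 over all genes tested. Myd88, the adaptor of Toll-like receptors, was among them at 0.25, 0.03 and -0.12, Gnai2, the inhibitory G protein of chemokine receptors, at 0.08, 0.13 and -0.28, and Rhoa, the actin-regulating GTPase, at -0.02, 0.03 and 0.33. Of 18 genes of metabolism and redox balance, 3 rose and 2 fell unstimulated, 4 rose and 4 fell at 4 h, and 6 rose and 10 fell at 24 h, with a median of -0.64 at 24 h. Acaa1a, a peroxisomal thiolase of fatty acid oxidation, was among those that fell at 24 h, from 39.4, 39.8 and 39 CPM to 14.1, 15.4 and 14 CPM (-1.45 ± 0.07, adjusted p = 1.71e-28). The median of all 177 genes was -0.01, -0.05 and -0.14. Of 9 genes of DNA repair and checkpoints, 0 rose and 2 fell unstimulated, 1 rose and 2 fell at 4 h, and 2 rose and 6 fell at 24 h (median -0.45). Smarcc1, a subunit of the SWI/SNF chromatin remodeller, fell at 24 h from 9.54, 11.1 and 11.5 CPM to 5.43, 4.87 and 4.1 CPM (-1.19 ± 0.12, adjusted p = 1.47e-13). Atr, the kinase that Topbp1 activates, was at 0.10, -0.02 and -0.45, with only the last past the threshold (adjusted p = 0.0012). Of 8 ubiquitin-pathway enzymes 3 rose and 1 fell, 2 rose and 1 fell, and 2 rose and 3 fell at the 3 conditions in turn. Arih2, a ligase of the RING-between-RING type, rose at all 3, from 70.9, 70.2 and 67.7 CPM to 84, 85.8 and 86.3 CPM unstimulated (0.30 ± 0.04 SE, adjusted p = 1.23e-07) and from 88.7, 87.1 and 86.3 CPM to 155, 155 and 154 CPM at 24 h (0.83 ± 0.04, adjusted p = 4.13e-28), though its 4 h call (0.12 ± 0.04, adjusted p = 0.0388) was lost without WT replicate 1 or 2, replicate 2 or 3 labelled CIS-/- or the unstimulated replicate 2 labelled CIS-/- (0.0504 to 0.165), with no low-count filter (0.126) and with library sizes alone (0.0635). Klhl18, a substrate adaptor of cullin ligases, fell at 24 h (-0.81 ± 0.05, adjusted p = 3.67e-24). Of 8 genes of ribosomal proteins, tRNA synthetases and translation, 2 rose and 2 fell, 0 rose and 1 fell, and 2 rose and 4 fell. Qars, the glutaminyl-tRNA synthetase, fell at 24 h (-0.91 ± 0.07, adjusted p = 5.01e-19), and Mrpl3, of the mitochondrial ribosome, fell in unstimulated cells (-0.87 ± 0.21, adjusted p = 0.00104). Of 3 collagen and matrix genes, 2 rose unstimulated and 1 rose at 4 h, none fell at either, and at 24 h 1 rose and 2 fell. Col7a1, the anchoring-fibril collagen, was at 0.44 ± 0.15, 0.45 ± 0.19 and -1.03 ± 0.17 SE, and Dag1, the matrix receptor dystroglycan, at -0.09 ± 0.15, 0.07 ± 0.13 and -1.44 ± 0.11, so of these 3 only Col6a4 kept its direction. The unstimulated call of Col7a1 was lost without replicate 1 or 2 of WT or replicate 2 or 3 labelled CIS-/- (adjusted p = 0.0607 to 0.0985), with DESeq2 (0.0589) and with no low-count filter (0.0643).

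Levels differed widely among the genes. Per kb of exon, the mean level over all libraries was 460 CPM for Cmtm6, which stabilises PD-L1 at the cell surface, 456 CPM for Gnai2, 391 CPM for Gpx1 and 353 CPM for Ccr1. These 4 are abundant, and of them only Ccr1 kept its direction. Overlap with other genes limits what counts can show: 83 of the 177 overlap a gene on the opposite strand and 57 one on the same strand. Of the 66 that overlap no other annotated gene, 14 (21.2%) kept their direction, 5 of them at 1.5-fold or more. Over all genes tested, with or without an overlap, it was 2.71% and 0.389%. The share among non-overlapping genes elsewhere was not counted.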

How the data were processed

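Neutrophil RNA of 18 libraries was measured by RNA sequencing. Per the submitters' processing notes, the authors used Trimmomatic, STAR and featureCounts with the mm10 build, and the deposited table gives whole, unscaled counts of reads for each Ensembl ID. The sources used here give no versions, strand setting or annotation release. IDs were matched to GENCODE M21 (GRCm38) without version numbers, and 53274 of 53379 had a name (the others held 0.0238% of counts). Genes were kept by edgeR's filterByExpr (11569 genes, 99.928% of counts), scaled by TMM and tested in 1 model of 6 groups with edgeR 4.0.16 (R 4.3.3) and its quasi-likelihood test, robust, with 12 residual degrees of freedom and a biological coefficient of variation of 3.3%. Calls needed a Benjamini-Hochberg adjusted p under 0.05 over all tested genes. Interactions are differences between genotype differences, and the joint test has 2 degrees of freedom. CPM values use TMM library sizes, and ± gives the standard error of a log2 difference.

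Total counts ran from 12170524 to 22539858, and few counts limit genes that were near 0 in a group. At 24 h the TMM factors were 1.28 to 1.29 in WT and 0.88 to 0.89 in libraries labelled CIS-/-. No library repeated another of its own group (chi-square per degree of freedom of the 18 replicate pairs 1.292 to 9.317). Libraries of different groups were not compared in this way. The script was tested on simulated data. Genes named were those with the largest kept differences (up to 8 in each direction), the largest interactions, the largest opposite calls, the 6 nearest Cish on either side and the 4 with the smallest adjusted p of each list. Cmtm6, Gnai2, Rhoa, Myd88, Rpl14, Rpsa, Rrp9, Atr, Exosc7, Glyctk, Sec22c, Trf, Pik3r4, Epm2aip1 and Slc25a38 fall outside that rule and were chosen after their values were seen. The genes, window and lists were chosen with earlier results of these data known. Alternatives were limma 3.58.1 (voom), DESeq2 1.42.0, RLE size factors, library sizes without TMM, other filters, 2-group fits, a replicate block and leaving out each library. Some genes are not reported here.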

Additional observations from a re-analysis of the deposited data

Results flagged for a closer look

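The genotype difference of each gene below changed between conditions by a test of that change (edgeR's quasi-likelihood test, adjusted p under 0.05). The 30 values are those with the largest changes among called genes with a mean of at least 10 CPM in a group, up to 5 in each direction per interaction, and the interactions share libraries. Because most genes of the table changed this way at 24 h, the later values describe single genes only.

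Between unstimulated cells and 4 h, the log2 difference of libraries labelled CIS-/- against WT changed by -3.77 for Gm17040, which overlaps Cish, by -1.41 for Csrnp1, by -0.78 for Hemk1, by -0.77 for Acpp and by -0.63 for Pxylp1, a phosphatase of proteoglycan synthesis. Gm17040 had 1 WT count in unstimulated cells, so the size of its change depends on how a fit treats such a count. The change was not called for Hemk1 without unstimulated replicate 1 of either genotype, nor for Pxylp1 without 4 h replicate 2 of WT or 1 labelled CIS-/-. The difference rose by 1.39 for Cdc25a, by 0.92 for Clasp2, by 0.80 for Entpd3, by 0.56 for Sacm1l, a phosphatase of phosphoinositides, and by 0.52 for Fyco1.

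Between unstimulated cells and 24 h it changed by -3.98 for Gpd1l, by -3.92 for Gm17040, by -3.29 for Col6a4, by -2.38 for Amotl2 and by -1.78 for Uba7. The change of Col6a4 was not called without WT replicate 3 at 24 h (-2.43, adjusted p = 0.339). It rose by 3.05 for Alas1, by 2.67 for Ccrl2, by 2.47 for Lrrfip2, by 2.44 for Hyal2, a cell-surface hyaluronidase, and by 2.29 for Manf. At 24 h, WT had 3.4, 2.71 and 3.24 CPM of Hyal2, and the libraries labelled CIS-/- had 12.4, 12.6 and 11.4 CPM.

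Between 4 h and 24 h it changed by -4.27 for Gpd1l, by -3.90 for Col6a4, by -2.56 for Amotl2, by -1.74 for Gpx1 and by -1.71 for Dusp7. That of Col6a4 was not called without WT replicate 3 at 24 h (-3.05, adjusted p = 0.228). It rose by 3.11 for Gm43814, by 3.07 for Alas1, by 2.75 for Ccrl2, by 2.58 for Lrrfip2 and by 2.09 for Atp1b3.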

How the results depend on the processing

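The count of genes with a kept direction (27) was 23 with DESeq2, 26 with limma-voom, 25 with RLE size factors, 21 with no low-count filter and 29 with library sizes alone. For the 11 genes at 1.5-fold or more it was 11, 11, 11, 12 and 14. Alternatives added after seeing the data moved 4 counts. Among the 66 genes that overlap no other gene, 14 kept their direction, 5 at 1.5-fold or more and 8 within 10 Mb of Cish, since fewer genes were counted, and with only 4 h and 24 h required, 18 were at 1.5-fold or more. Leaving out each library in turn gave 56 to 76 genes with a difference in unstimulated cells, 54 to 69 at 4 h, 132 to 141 at 24 h and 120 to 128 for the mean difference. It gave 31 to 40 for the change to 4 h, 124 to 129 for that to 24 h, 121 to 127 between 4 h and 24 h, 133 to 138 jointly, 20 to 28 with a kept direction, 10 to 12 of them at 1.5-fold or more and 15 to 21 within 10 Mb. With library sizes alone, 7 values of named genes turned their sign: at 24 h Limd1 (-0.10), Mapkapk3 (-0.16) and Ccr1 (-0.45), for the change between 4 h and 24 h Gmppb (-0.08), Tma7 (-0.02) and Sacm1l (-0.27), and for the change to 24 h Clasp2 (-0.04). The mean difference (53 higher, 73 lower) was then higher in 30 of 138 calls, the change to 24 h (53 and 75) in 32 of 142, the change from 4 h to 24 h (57 and 70) in 35 of 142 and the kept difference within 10 Mb (9 and 11) in 6 of 23. Of the values of named genes over all alternatives, 5885 stayed on their side of the threshold in the same direction and 149 lost the call.

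With the replicate number as a block, 69, 68 and 142 genes differed at the 3 conditions and 29 kept their direction, 12 at 1.5-fold or more. The labels do not say that a number pairs libraries. Over 45 pairs of same-numbered libraries from different groups the correlation ran from -0.0775 to 0.065, and 3 of 18 libraries correlated best with their own number. The depth limits Col6a4, Gm17040 and Gm43814 in WT, where counts were 1 to 3 in single conditions. One neighbour of Cish known by a clone name had too few counts for the strict filter and gave no value there.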
